A study of Mus musculus with 4 samples.

Results

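The genotype-by-day shift of a gene was defined as the genotype difference (fl/fl minus wt/wt) at day 6 minus the genotype difference at day 4, on the scale log2(intensity + 16). Each array was first centred on the median of the genes tested. Genes with a shift of 1 or more, or of -1 or less, are described here: 443 of the 11392 genes tested (3.89%), chosen on the 4 arrays described. A positive shift means that fl/fl organoids stood higher relative to wt/wt organoids at day 6 than at day 4. It was 1 or more in 196 genes (1.72%) and -1 or less in 247 (2.17%). These values chose the genes and are given as descriptions, without a test.

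The cultures were mouse intestinal organoids (epithelium grown as hollow, budding bodies in Matrigel), either wt/wt or fl/fl at Tacc3, which encodes a microtubule protein of the mitotic spindle. All 4 groups received 4-hydroxytamoxifen (4OHT) for 24 hours and were collected 4 or 6 days later. They were Tacc3 wt/wt at day 4, Tacc3 fl/fl at day 4, Tacc3 wt/wt at day 6 and Tacc3 fl/fl at day 6, with 1 Affymetrix 3' array each, so no value has a replicate check or an error. The study's design text says that 4OHT served to recombine Apc and Tacc3, whereas the sample descriptions call day 4 organoids normal and day 6 organoids Apc-deficient; the labels thus leave the state of Apc on each array unclear. The labels do not name the Cre line, the floxed exons or how many animals or cultures each array stands for.

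The intestinal epithelium is renewed by stem cells at the crypt base, whose progeny become absorptive enterocytes or secretory goblet, Paneth, enteroendocrine and tuft cells. Wnt signalling, which Apc restrains, maintains the stem cells. Cells also adjust their transcripts within hours to oxygen, nutrients and stress. Low oxygen stabilises hypoxia-inducible factors, which raise glycolytic enzymes, and stress alters the splicing of kinases and RNA-binding proteins that themselves control splicing.

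The epithelial identity of the arrays was clear from Epcam, the epithelial adhesion molecule, which read 901 (wt/wt) and 1446 (fl/fl) at day 4, then 4789 and 4704 at day 6. Krt8, an epithelial keratin, lay between 7343 and 9385. Tacc3 read 184 (wt/wt) and 59.8 (fl/fl) at day 4, then 167 and 49.7 at day 6, so its genotype difference hardly moved between the days (shift of 0.10). Its fl/fl level was the lower at each day, although whether the probe set lies in the deleted part is not known. Apc read 27.9, 53.5, 122 and 149.6 in the same order (shift of -0.22). Markers of other cell types were mostly dim: 6 of 18 mesenchymal, 5 of 19 immune and 3 of 12 endothelial genes on the array passed the intensity filter of 16.9. Ptprc, the pan-leukocyte antigen, read at most 6.77, and Col3a1, a fibroblast collagen, at most 5.30. Other markers of these lists were brighter, and Lyz2 far brighter. Eng of the endothelial list read 98.3, Cd4 68.3 and the mesenchymal Col6a2 61.9 in wt/wt organoids at day 4, their highest array. The summed mesenchymal signal was uneven, with 433 (wt/wt) and 319 (fl/fl) at day 4, then 221 and 240 at day 6.

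Most of the 443 genes were not far apart between genotypes at either single day; the shift added opposite differences of the days. Among genes with a shift of 1 or more, 151 of 196 differed by less than 1 at each day, 26 passed 1 at day 4 alone and 15 at day 6 alone. Among those with a shift of -1 or less, 179 of 247 passed at neither day, 25 at day 4 alone and 40 at day 6 alone. Over all genes, 0.386% were higher and 0.413% lower in fl/fl organoids by 1 or more at day 4, and 0.184% and 0.641% at day 6. The genotype difference changed sign between the days in 93.9% of the genes with positive and 94.3% of those with negative shifts, against 48.1% of all genes, as the rule itself favours. Among the 443 genes, only Slc15a2, a peptide transporter, passed 1 in the same direction on both days.

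**Figure D1:**
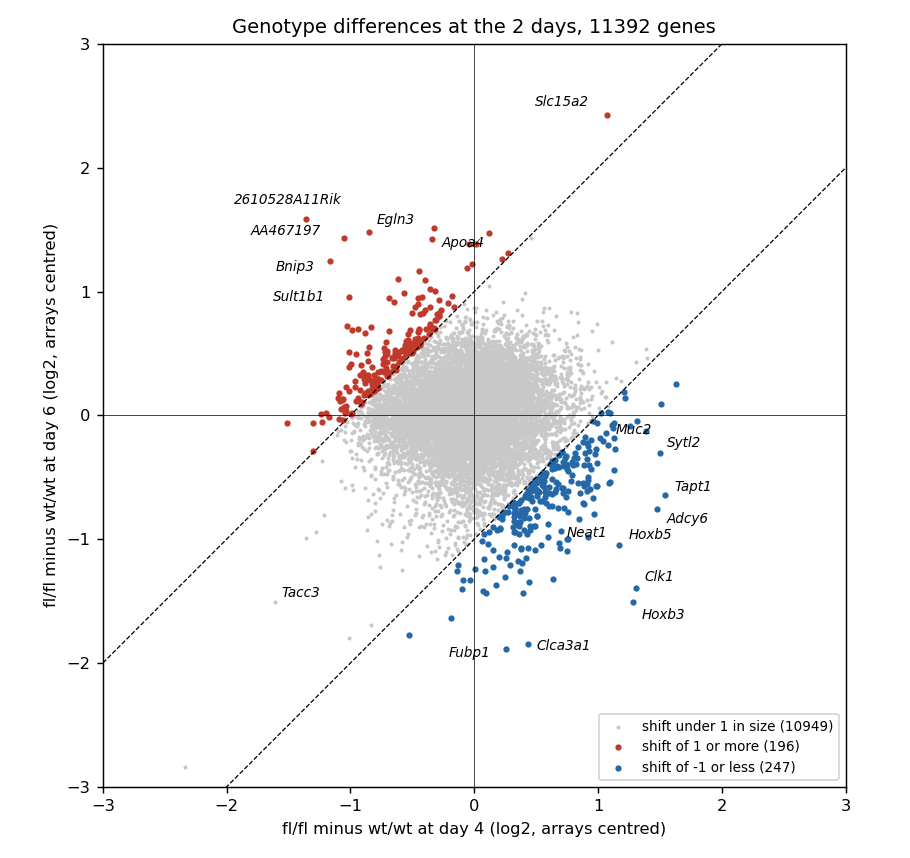
Genotype difference (fl/fl minus wt/wt, log2, arrays centred) at day 4 on the horizontal and at day 6 on the vertical axis, 1 point per gene for 11392 genes. The dashed lines mark shifts of 1 and -1; the 196 genes with a shift of 1 or more lie above the upper line, mostly at upper left, and the 247 genes with a shift of -1 or less lie below the lower line, mostly at lower right.

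The negative shifts came mostly from genes that were low in wt/wt organoids at day 4 and high in wt/wt organoids at day 6. In 158 of the 247 genes the centred wt/wt array was the lowest at day 4 and the highest at day 6, an order held by 8.87% of all genes. Over the 247 genes, the median intensity was 67.2 (wt/wt) and 129 (fl/fl) at day 4, then 241 and 145 at day 6, with both fl/fl values between the wt/wt values. In 141 of these genes wt/wt organoids were higher by 1 or more at day 6 (9.2% of all genes), and in 14 fl/fl organoids were (8.17% of all genes). A fall of 1 or more was seen in wt/wt organoids in 3 (11.8% of all genes) and in fl/fl organoids in 18 (5.94% of all genes).

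The positive shifts held 2 orders. In 91 of 196 genes (46.4%) the wt/wt array was highest at day 4 and lowest at day 6, an order held by 17.9% of all genes. In 79 (40.3%) the fl/fl array was lowest at day 4 and highest at day 6, against 8.54% of all genes. Over the 196 genes, the median intensity was 58.8 (wt/wt) and 35.6 (fl/fl) at day 4, then 47.6 and 77.0 at day 6. Their probe sets were dimmer than those with negative shifts, with a median of the mean intensities of 51.7 against 132. With the genes tested cut into 4 equal bins by mean intensity, the dimmest bin held 74 positive and 10 negative shifts past the threshold, and the brightest 23 and 78.

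The balance of directions depended on the scale of the arrays. Without centring the counts were 74 positive and 467 negative, and with centring on all genes of the array 65 and 511, because these choices moved the median shift of the genes tested from 0.09 to -0.09 and -0.11. Scaling on the bacterial hybridization controls gave 119 and 366, and quantile normalization 178 and 313. Positive shifts thus made up 44.2% of the 443 genes, and 13.7%, 11.3%, 24.5% and 36.3% under these 4 scalings in the order given. Under all 4 of them, 60 of the 196 positive (30.6%) and 234 of the 247 negative genes (94.7%) kept their side of the threshold.

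The 5' to 3' intensity ratios of control transcripts, a usual measure of RNA integrity and labelled cRNA length, had shifts of their own. That of Gapdh read 0.208 (wt/wt) and 0.142 (fl/fl) at day 4, then 0.411 and 0.524 at day 6, a log2 shift of 0.90. The ratio of Actb had a log2 shift of 0.50 and that of Tfrc 0.44, in the direction of the positive genes. The hybridization controls had a log2 shift of -0.01 and the poly-A spike-ins of -0.02. The part of these ratios in the shifts of single genes was not tested.

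Among the lists with 10 or more measured genes, hypoxia and glycolysis had the highest median and the highest share of genes with a shift of 1 or more. Of 27 measured genes of this list 10 had a shift of 1 or more and none of -1 or less, and the list's median was 0.75, against 0.09 over all genes. It kept a positive median under each of the 4 other scalings (0.55 to 0.74). In most of these genes, wt/wt organoids were higher at day 4 and fl/fl organoids at day 6: the median genotype difference of the list was -0.32 at day 4 and 0.55 at day 6. The sequences upstream of the 4 genes of the list with the largest shifts were examined, because the response of such genes to low oxygen runs through short elements in DNA that share a core. They are the 250 bases before the transcription start in RefSeq's annotation of GRCm38.p6, 5' to 3' on the gene's strand, with ACGTG or GCGTG on either strand in capitals.
Bnip3: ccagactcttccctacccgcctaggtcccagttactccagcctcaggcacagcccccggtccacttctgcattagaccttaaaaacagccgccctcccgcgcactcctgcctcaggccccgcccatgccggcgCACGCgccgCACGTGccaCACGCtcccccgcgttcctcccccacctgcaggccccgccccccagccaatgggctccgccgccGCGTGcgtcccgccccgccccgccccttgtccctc
Egln3: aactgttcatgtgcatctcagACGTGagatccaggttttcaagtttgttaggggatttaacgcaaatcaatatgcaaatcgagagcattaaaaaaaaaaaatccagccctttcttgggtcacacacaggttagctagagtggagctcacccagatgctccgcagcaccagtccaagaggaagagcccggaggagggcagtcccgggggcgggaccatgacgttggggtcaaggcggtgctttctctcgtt
Aldoc: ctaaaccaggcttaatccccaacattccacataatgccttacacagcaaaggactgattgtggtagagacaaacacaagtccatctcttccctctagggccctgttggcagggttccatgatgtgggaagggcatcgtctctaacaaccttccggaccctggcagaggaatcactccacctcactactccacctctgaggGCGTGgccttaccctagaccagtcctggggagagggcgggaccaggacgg
Ankrd37: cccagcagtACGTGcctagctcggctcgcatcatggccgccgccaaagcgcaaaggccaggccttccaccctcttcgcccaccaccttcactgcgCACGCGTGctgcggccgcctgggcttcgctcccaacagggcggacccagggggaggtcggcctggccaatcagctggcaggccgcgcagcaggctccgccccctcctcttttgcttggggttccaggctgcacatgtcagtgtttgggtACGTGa
They lie at chr7:138909507-138909756 on the minus strand (Bnip3), chr12:54203875-54204124 on the minus strand (Egln3), chr11:78322823-78323072 on the plus strand (Aldoc) and chr8:45999851-46000100 on the minus strand (Ankrd37). Counting both strands, Bnip3 held 5 cores, Ankrd37 4, and Egln3 and Aldoc 1 each. These cores were chosen for search after the values were seen, and they are common: 38.6% of all 32851 promoters of this length and 55.2% of those of tested genes held at least 1. They were found in 12 of the 15 promoters (80.0%) of the 10 genes past the threshold, close to the 76.3% of all measured genes of the list. Among promoters of all genes with positive shifts the share was 50.3%, and with negative shifts 57.0%. A match is a run of letters and does not show binding.

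Bnip3, a mitochondrial protein that triggers mitophagy and a classical target of hypoxia-inducible factors, read 216 (wt/wt) and 104 (fl/fl) at day 4, then 65.0 and 181 at day 6. The wt/wt organoids were thus the higher at day 4 and the lower at day 6, and the shift was 2.42. Egln3, the oxygen sensor that marks the hypoxia-inducible factor for destruction and is itself its target, read 235 and 145 at day 4, and 67.1 and 222 at day 6 (shift of 2.33). Its other probe set above the filter had a shift of 1.02. Ankrd37, another target, read 54.5 and 43.9, then 24.7 and 77.6 (1.62). In all 3 genes the wt/wt organoids at day 6 gave the lowest value.

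Glycolytic enzymes also had positive shifts. Aldoc, an aldolase, read 376 (wt/wt) and 221 (fl/fl) at day 4, then 118 and 206 at day 6 (shift of 1.64). Ldha, which makes lactate from pyruvate, was at a similar level on 3 arrays (1037, 938 and 966) and stood out in fl/fl organoids at day 6 with 2027 (shift of 1.38). Pgk1, a phosphoglycerate kinase, read 3055 and 2439, then 1474 and 2313 (1.15), and its other probe sets above the filter included shifts of 1.59 and 1.29. Shifts were 1.06 for the aldolase Aldoa, 1.05 for the phosphofructokinase subunit Pfkl and 1.03 for the isomerase Tpi1. Their other probe sets above the filter gave 0.71, 0.86, 1.11 and 0.98 for Aldoa, 0.53 and 0.39 for Pfkl, and 0.94 and 0.55 for Tpi1. For 3 of these enzymes (Aldoa, Pgk1 and Tpi1), the probe set used is of the x_at kind, which can bind several transcripts.

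Vegfa, the angiogenic growth factor, read 374 (wt/wt) and 236 (fl/fl) at day 4, then 64.8 and 77.1 at day 6 (shift of 1.02), so it differed far more between days than between genotypes. Another of its probe sets above the filter had a shift of -0.91, and the value is uncertain. Not all targets of low oxygen followed: 4 of the 27 genes had negative shifts, which were -0.71 for the histone demethylase Kdm3a, -0.23 for the glucose transporter Slc2a1, -0.17 for the carbonic anhydrase Car9 and -0.14 for the hexokinase Hk2. Without centring 5 of the 10 genes kept a shift of 1 or more, namely Bnip3, Egln3, Aldoc, Ankrd37 and Ldha. Among the arrays the 5' to 3' ratio of Gapdh, itself a glycolytic transcript, had its log2 shift of 0.90 in the same direction, and its part in this group was not tested.

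**Figure D2:**
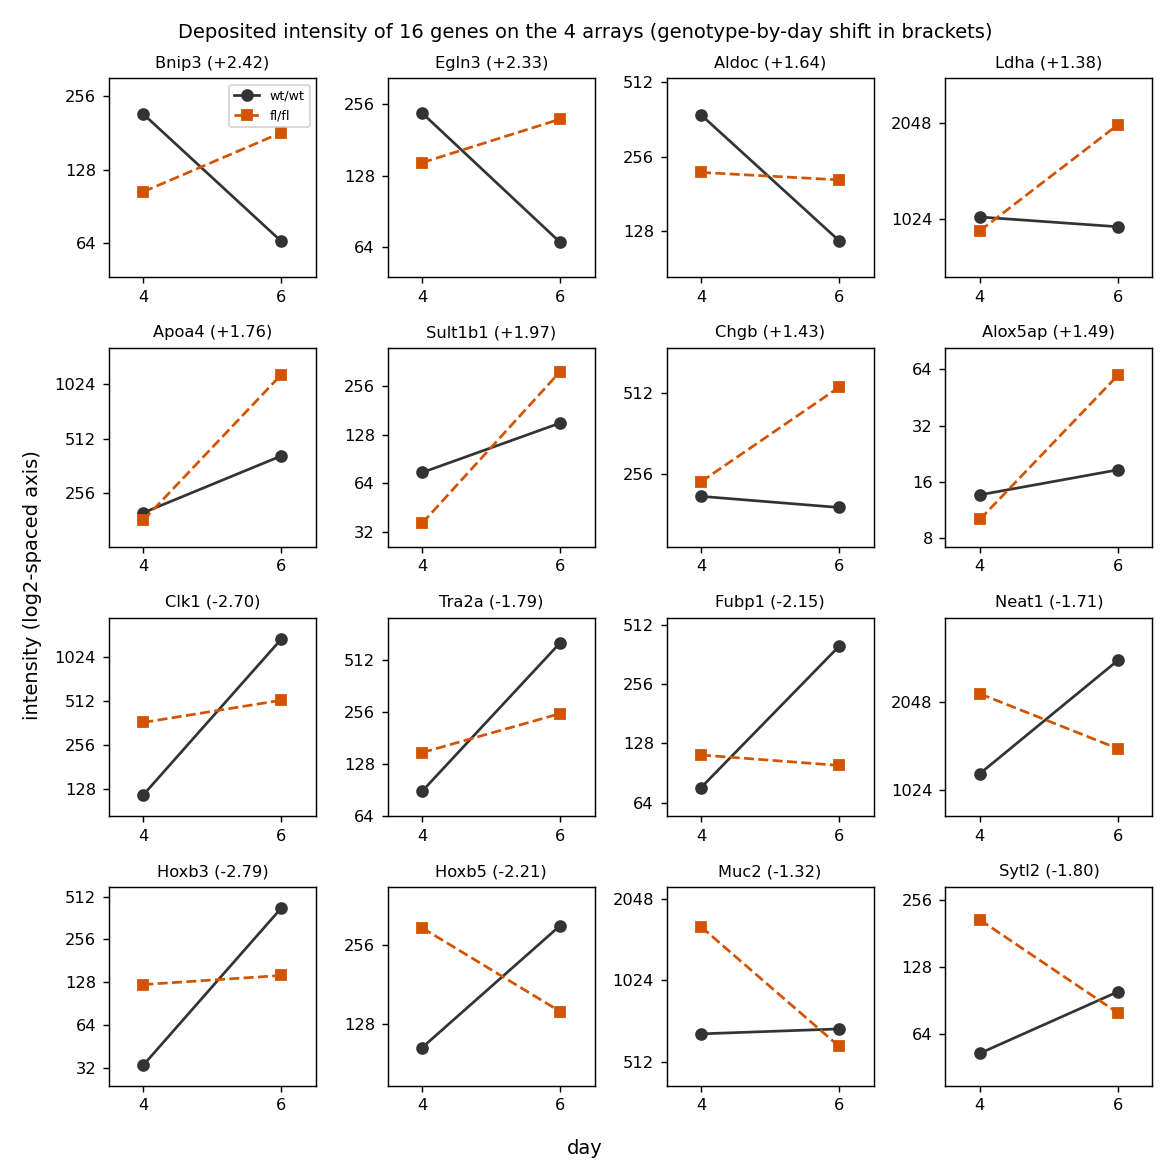
Deposited intensity (log2-spaced axis) of 16 genes at day 4 and day 6, with wt/wt organoids as filled circles on solid lines and fl/fl organoids as squares on dashed lines, 1 array per point. In the upper 2 rows fl/fl organoids end above wt/wt organoids at day 6, as in Bnip3 (181 against 65.0); in the lower 2 rows they start above them at day 4 and end below them, as in Clk1 (365 against 117, then 517 against 1352).

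Some genes of mature absorptive cells also had positive shifts, but their lists were mixed. In the lipid handling list 4 of 21 measured genes passed 1 and none passed -1. The median was 0.50 (0.30 to 0.44 under the other scalings). Below 0 lay 5 genes, among them Abcg5 (-0.74), Sar1b (-0.53) and Abcg8 (-0.39). Apoa4, an apolipoprotein of chylomicrons, read 201 (wt/wt) and 182 (fl/fl) at day 4, then 413 and 1159.9 at day 6 (shift of 1.76), and its other probe set gave 1.98. It was close between genotypes at day 4 and far apart at day 6. Npc1l1, the cholesterol uptake receptor, read 59.3 and 27.2, then 149 and 206 (1.41). The fatty acid binding proteins Fabp1 and Fabp2 had shifts of 1.25 and 1.13, of which Fabp1 was dim (at most 45.4).

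Further genes of enterocytes had the same course. Sult1b1, a sulfotransferase, read 74.7 (wt/wt) and 36.1 (fl/fl) at day 4, then 152 and 317 at day 6 (shift of 1.97). Fbp1, the fructose bisphosphatase of gluconeogenesis, read 59.8 and 41.5, then 189 and 434 (1.72). Pls1, the actin bundler of the microvillus core, read 107 and 80.7, then 332 and 691 (1.55). In these 3 genes both genotypes were higher at day 6, and fl/fl organoids started lower and ended higher.

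S100g, the calcium carrier of enterocytes, had a shift of 1.56 and Cmbl, a hydrolase that activates prodrugs, 1.68. Of 40 measured drug metabolism genes 5 passed 1 and none passed -1 (median of 0.31, and 0.10 to 0.29 under the other scalings). Those past 1 included Adh1, an alcohol dehydrogenase (1.24), and the cytochrome Cyp2c65 (1.22), while 12 of the 40 lay below 0. In the brush border list only Pls1 of 22 genes passed (median of 0.39), and 7 lay below 0, among them Tmigd1 (-0.83) and Dpp4 (-0.51). Among 32 transporters 4 had a shift of 1 or more and 1 of -1 or less, with a median of 0.19 that turned to -0.02 with centring on all genes. Slc15a2 read 63.1 and 176 at day 4, and 32.9 and 253 at day 6 (1.36), higher in fl/fl organoids on both days. The basolateral sugar transporter Slc2a2 was near background at day 4 (6.97 and 5.37) and read 46.7 and 113 at day 6 (1.32). The exception was Slc3a2, the heavy chain of amino acid exchangers, at -1.05.

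Lipid synthesis genes were near the threshold. Of 29 sterol and fatty acid synthesis genes 4 passed 1 and none passed -1: the desaturase Scd1 (1.17), the sterol demethylase Cyp51 (1.15), the isomerase Idi1 (1.12) and the farnesyl diphosphate synthase Fdps (1.01). None of these 4 passed without centring, and the list median of 0.18 turned to -0.03 with centring on all genes. A second probe set above the filter gave 0.21 for Cyp51 and 0.41 for Idi1. Oxidative phosphorylation genes leaned the same way by little, with 64 of 73 shifts above 0, a median of 0.26 (0.05 to 0.20 under the other scalings) and 2 past the threshold. These were Cox7a1, a subunit of cytochrome oxidase (1.63), and Atp5mpl, a small subunit of the ATP synthase (1.08).

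Markers of hormone-producing and tuft cells also had positive shifts, several of them at low intensities. Of 25 measured enteroendocrine genes 3 passed 1, none passed -1 and 23 lay above 0, with a median of 0.54 (0.34 to 0.49 under the other scalings). Over all genes, 6609 of 11392 lay above 0. The median shift was 0.29 in the dimmest bin of genes and -0.03 in the brightest, and the part of intensity in these lists was not tested. Chgb, a protein of hormone granules, read 210.4 (wt/wt) and 238 (fl/fl) at day 4, then 191 and 537 at day 6 (shift of 1.43). Cck, the hormone cholecystokinin, read 27.4 and 32.3, then 20.9 and 70.2 (1.25). For both genes 3 arrays were alike and fl/fl organoids at day 6 stood out. Scg3, another granule protein, read 58.6 and 36.2, then 17.8 and 28.0 (1.08).

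Tuft cells are chemosensory cells of the epithelium. Of 12 measured genes 3 passed 1 and none passed -1 (median of 0.52, and 0.31 to 0.46 under the other scalings). The dimmest bin of genes had a median of 0.29. Alox5ap, needed to make leukotrienes, read 13.6 (wt/wt) and 10.1 (fl/fl) at day 4, then 18.5 and 59.5 at day 6 (shift of 1.49). The G protein regulator Rgs13 had a shift of 1.35, and the kinase Dclk1, a standard marker, 1.04. All 3 lay at or below 19.7 at day 4, near the filter, and none of the 3 passed when every array had to reach the filter. In bulk RNA, more cells of a type cannot be told apart from more of its RNA per cell.

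Most measured markers of goblet cells and all of Paneth cells had shifts of the opposite sign, and for most of those past the threshold the difference lay at day 4. Of 21 measured goblet cell genes 3 passed -1 and none passed 1, with a median of -0.46 (-0.67 to -0.53 under the other scalings). Above 0 lay 5 genes, among them Clca1 (0.89), Zg16 (0.35) and Atoh1 (0.20). Muc2, the gel-forming mucin, read 648 (wt/wt) and 1611 (fl/fl) at day 4, then 676 and 583 at day 6 (shift of -1.32). Sytl2, which acts in granule exocytosis, read 52.6 and 209, then 99.2 and 79.7 (-1.80). In both genes fl/fl organoids at day 4 were the high array. Klk1, a kallikrein, had a shift of -1.02, and -1.28, -0.08 and 0.40 at other probe sets.

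Reg4, a secreted lectin, had the same form, with 243 (wt/wt) and 731 (fl/fl) at day 4, then 258 and 256 at day 6 (shift of -1.36). It is in neither the goblet nor the Paneth list but in that of NF-kB targets, chemokines and epithelial defence. There 1 of 19 genes passed in each direction (5.26%, against 1.72% positive and 2.17% negative of all genes), with a median of 0.21. The other was Cx3cl1 (1.21, and 0.25 at a second probe set above the filter). All 12 measured Paneth cell genes had negative shifts, with a median of -0.46 (-0.67 to -0.51), and 1 passed. This was Mmp7, the protease that activates defensins, which read 2701 and 6116, then 1702 and 1690.2 (-1.01). Among genes of the unfolded protein and integrated stress responses 2 of 41 passed -1 (4.88%, against 2.17% of all genes). The median was -0.27 (-0.47 to -0.30). The 2 genes were the ubiquitin ligase Syvn1 (-1.42) and its partner Herpud1 (-1.05), which remove misfolded proteins from the endoplasmic reticulum. A second probe set gave -0.48 for Syvn1 and -0.34 for Herpud1. Lyz2, counted in both the Paneth and the immune list, went from 1887 and 2857 to 1533 and 1136, a shift of -0.84. Lyz2 made up most of the summed immune signal of 2211, 3131, 1747 and 1340 in the same order. Its near-identical relative Lyz1, a lysozyme of Paneth cells, had a shift of -0.10.

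Some stem cell and Wnt target genes had negative shifts, but both lists were mixed. Of 20 measured stem cell genes 4 passed -1, none passed 1 and 7 lay above 0, with a median of -0.30 (-0.50 to -0.36 under the other scalings). Among those above 0 were Hopx (0.68), Ascl2 (0.48) and Olfm4 (0.34), all markers of crypt cells. Rnf43, which removes Wnt receptors and is induced by Wnt, read 179 (wt/wt) and 332 (fl/fl) at day 4, then 468 and 283 at day 6 (shift of -1.36). Lrig1, a brake on growth factor receptors in stem cells, read 74.4 and 168, then 723 and 581 (-1.15), and a second probe set of it gave -0.98. In both genes wt/wt organoids had the lowest value at day 4 and the highest at day 6.

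Axin2, the feedback inhibitor of Wnt signalling, had a shift of -1.04, but a second probe set gave 0.63 and the mean of its probe sets -0.25. Rgmb, a BMP co-receptor, had -1.14, and the mean of its probe sets gave -0.67. Of 20 Wnt targets 8 lay above 0, among them the transcription factor Sp5 (0.47), and the median was -0.27, which became -0.03 with the mean of probe sets. No Wnt target passed 1 and 3 passed -1, namely Rnf43, Axin2 and the transcription factor Myc, which read 75.7 and 182, then 470.4 and 424 (-1.07). Lgr5, the receptor that defines crypt base stem cells, was short of the threshold at -0.89.

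Regulators of splicing had the lowest median of the lists with 10 or more measured genes. Of 29 measured genes 7 passed -1 and none passed 1, and the median was -0.68 (-0.88 to -0.68 under the other scalings). Above 0 lay 8 genes, the highest at 0.66. The difference lay at day 6, with a median genotype difference of 0.05 at day 4 and -0.50 at day 6. Clk1, a kinase that phosphorylates the SR splicing factors and whose own transcript is partly retained with introns, read 117 (wt/wt) and 365 (fl/fl) at day 4, then 1352 and 517 at day 6 (shift of -2.70). The wt/wt organoids were lowest at day 4 and by far the highest at day 6. Tra2a, a splicing activator of the SR family, read 88.9 and 149, then 649 and 251 (-1.79), and its other probe sets above the filter gave -1.32, -1.06 and 0.12.

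The RNA helicases Ddx5 and Ddx17 were alike in course. Ddx5 read 1064 (wt/wt) and 1509.6 (fl/fl) at day 4, then 3450.0 and 1522 at day 6 (shift of -1.49), and Ddx17 read 1007 and 1222, then 2709 and 1363 (-1.08). For each, 3 arrays were close and wt/wt organoids at day 6 stood out. A second bright probe set of Ddx17 gave -1.25 and a dim one 0.52, and 5 other probe sets of Ddx5 gave -1.17, -1.03, -0.45, -0.20 and 0.36, so that the mean of its probe sets was -0.71. Rbm5, a splicing regulator of apoptosis genes, Luc7l2, a component of the early spliceosome, and Clk2 passed with -1.16, -1.12 and -1.04, although the mean of the probe sets of Rbm5 gave -0.20 and the other probe sets of Luc7l2 ran from -1.18 to 0.73.

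Other genes of RNA processing lay among the 247, picked by function after their values were seen. Fubp1, a DNA- and RNA-binding protein, read 76.2 (wt/wt) and 112 (fl/fl) at day 4, then 400.2 and 98.9 at day 6 (shift of -2.15), while other probe sets of it gave 0.26, -0.76 and -0.94. Prpf39, a splicing factor of the U1 particle, read 27.8 and 50.7, then 254 and 86.0 (-1.83), with -1.10 and 0.23 at its other probe sets. Arglu1, an arginine-rich splicing modulator, had a shift of -1.90, but a second probe set gave 0.63. Ccnl2, the cyclin L2 of splicing kinases, read 284 and 569, then 1017 and 513 (-1.75), with -1.81 and -1.04 at its other probe sets. Further shifts were -1.63 for Khdc4, -1.55 for Ptbp2, -1.38 for Prpf4b, -1.38 for Zranb2, -1.24 for Thoc1 and -1.07 for Hnrnph1. Other probe sets gave 0.67, 0.53, -0.13 and -1.28 for Prpf4b, and 0.30 and -0.89 for Thoc1.

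Neat1 and Ogt, whose RNAs are wholly or partly held in the nucleus, also passed -1. Neat1, the long non-coding RNA that builds paraspeckles, read 1161 (wt/wt) and 2177 (fl/fl) at day 4, then 2835 and 1414 at day 6 (shift of -1.71). It was high on 1 array of each genotype, fl/fl at day 4 and wt/wt at day 6, and a second probe set of it gave 0.61. Neat1 was the 1 of 14 long non-coding RNAs to pass (7.14%, against 2.17% of all genes). Ogt, the O-GlcNAc transferase, read 56.4 and 92.4, then 1025 and 431 (-1.62), and 3 other probe sets gave -1.03, -0.94 and -0.63. Unlike Neat1, it was higher on both day 6 arrays than on both day 4 arrays. Of 210 zinc finger genes 8 passed -1 (3.81%, against 2.17% of all genes) and none passed 1. Their median was -0.01, with 104 shifts above 0 and 106 below. The lowest of the list was Zfp948 at -1.52.

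**Figure D3:**
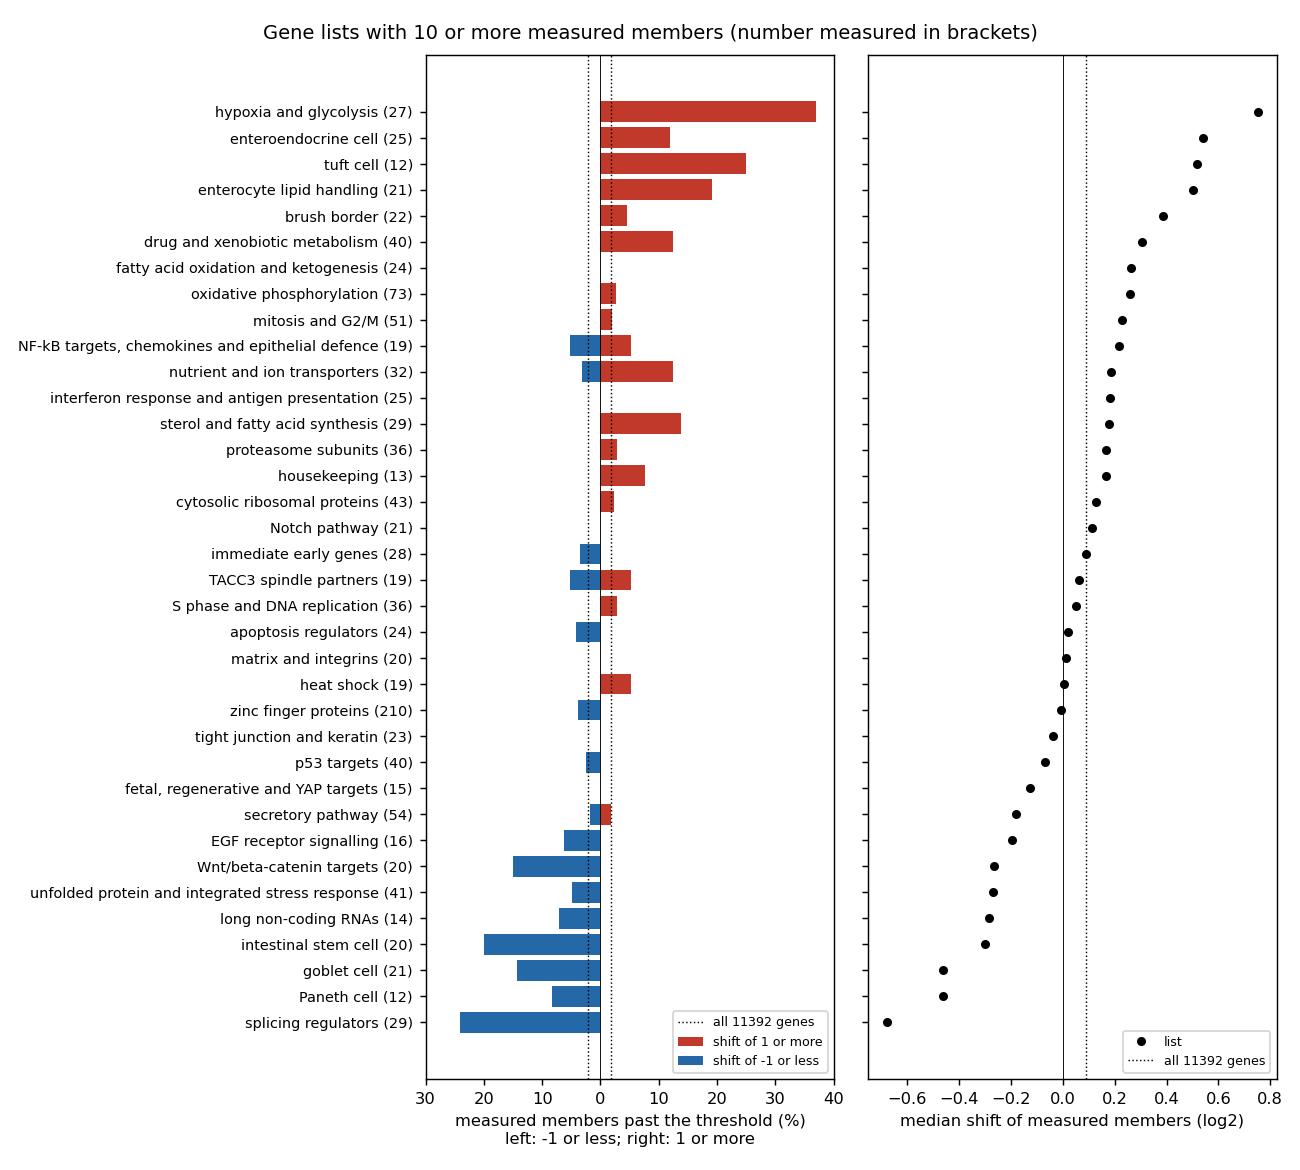
Lists with 10 or more measured genes, without the Hox and Id lists added after their values were seen. Left, percent of the measured genes of each list with a shift of 1 or more (to the right) or -1 or less (to the left), with the shares over all 11392 genes, 1.72% and 2.17%, as dotted lines; right, median shift of each list on the log2 scale, with that of all genes (0.09) as a dotted line. Of the lists plotted, hypoxia and glycolysis stands at the upper end (37.0% past 1, median of 0.75) and splicing regulators at the lower end (24.1% past -1, median of -0.68).

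The lowest shift of all belonged to a gene of the Hox B cluster, which sets position along the body and gut axis. Hox genes were added as a list after these values were seen, and 4 of 12 measured passed -1, all of the B cluster, while 1 passed 1. Hoxb3 read 33.4 (wt/wt) and 123 (fl/fl) at day 4, then 425 and 143 at day 6 (shift of -2.79). Hoxb5 read 104 and 297, then 303 and 142 (-2.21). For both the fl/fl level was the higher at day 4 and the wt/wt level at day 6. A second probe set of Hoxb3 gave -0.76.

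The neighbours Hoxb4 and Hoxb6 had shifts of -1.50 and -1.52, with 121, 198, 161 and 70.4 for Hoxb4 in wt/wt and fl/fl organoids at day 4 and then at day 6. Hoxb9 had -0.74 and Hoxb2 0.41, so the cluster was not uniform. Hoxa7 of another cluster had a shift of 1.21, with 67.4 in wt/wt organoids at day 4 against 27.4 to 32.2 on the other 3 arrays.

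Single genes outside the lists had shifts as large. At the upper end, 2610528A11Rik, which encodes a small secreted ligand of a G protein-coupled receptor, read 223 (wt/wt) and 92.2 (fl/fl) at day 4, then 110.0 and 371 at day 6, the highest shift of the 11392 genes (2.94). AA467197, which encodes a small mitochondrial protein of mucosal epithelia, read 127 and 63.9, then 101 and 308 (2.48). In both genes fl/fl organoids were the lowest array at day 4 and the highest at day 6. Ctse, the aspartic protease cathepsin E, had a shift of 1.84 and 0.66 at a second probe set. Nes, the intermediate filament nestin, had 1.75, but 0.07 at a second probe set that read 73.7 to 161.

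At the lower end, Clca3a1, a secreted protein of the chloride channel accessory family, read 49.8 (wt/wt) and 86.7 (fl/fl) at day 4, then 346 and 86.8 at day 6 (shift of -2.28), with -1.41 at a second probe set. Adcy6, an adenylyl cyclase, read 236 and 798, then 1435 and 864 (-2.23). Tapt1, a membrane protein of the ciliary base, read 32.8 and 149, then 310.2 and 198 (-2.18). In the first the wt/wt array at day 6 stood apart, and in the others the wt/wt array at day 4 was also far below the rest. Entpd8, a nucleotidase of the apical membrane, had -1.96, and the deubiquitinase Usp33 -1.85.

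Id genes, transcriptional inhibitors that BMP signalling induces, were added as a list after their values were seen. Id3 read 20.3 (wt/wt) and 26.5 (fl/fl) at day 4, then 44.2 and 144 at day 6 (shift of 1.37). Id1 read 58.0 and 87.9, then 103 and 285 (1.04). In both, fl/fl organoids at day 6 were the high array. Id2 and Id4 had shifts of 0.72 and 0.29.

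The lists of the spindle and the cell cycle, to which Tacc3 belongs, had few genes past the threshold. Of 19 TACC3 spindle partners 1 passed in each direction: Ckap5, the microtubule polymerase that TACC3 recruits to the spindle, read 56.7 (wt/wt) and 31.7 (fl/fl) at day 4, then 75.2 and 92.6 at day 6 (shift of 1.04), while a second probe set gave -0.44. Tubgcp3, of the gamma-tubulin ring that nucleates microtubules, read 17.7 and 59.4, then 146 and 107 (-1.38). The share of this list was 5.26% in each direction, against 1.72% (positive) and 2.17% (negative) of all genes. Its median was 0.06 and turned to -0.14 with centring on all genes. Of 51 mitosis genes Ube2c, an ubiquitin-conjugating enzyme of mitotic exit, passed (1.04), and of 36 S phase genes the replication factor Gins2 (1.12). These shares of 1.96% and 2.78% were close to the 1.72% of all genes with a shift of 1 or more.

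Targets of p53 had 1 of 40 past the threshold, the DNA damage binding protein Ddb2 at -1.76, with -2.43 at a second probe set. Apoptosis regulators had 1 of 24, the survival factor Bcl2 at -1.37 (-0.87 with the mean of its probe sets). These shares of 2.5% and 4.17% rest on 1 gene each and stand beside 2.17% of all genes with a shift of -1 or less. None of the measured genes passed in the lists of fetal and regenerative genes (15), fatty acid oxidation (24), interferon response (25), Notch pathway (21), tight junction and keratin (23), matrix and integrins (20), and mesenchymal (6), immune (5) and endothelial cells (3). The lists covered a minority of the 443 genes: 44 of the 196 positive (22.4%) and 34 of the 247 negative genes (13.8%) were in any list, against 10.2% of all genes tested.

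A second probe set of the same gene gives a separate reading of the same RNA. Another probe set above the filter was present for 62 positive genes, and 67 of their 83 other probe sets had a positive shift, with a median of 0.39 and 9 at 1 or more. For 134 negative genes, 154 of 240 other probe sets had a negative shift, with a median of -0.26 and 36 at -1 or less. Among genes not past the threshold, 4599 of 7510 other probe sets had a positive and 2911 a negative shift, with a median of 0.12. Most other probe sets of the 443 genes had the sign of their gene, but mostly smaller shifts than those by which the genes were chosen.

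Just inside the threshold lay Siglec1 (1.0001), Ankrd40 (1.0014) and Vegfb (1.0015) on the positive side, and Pgap6 (-1.0006), Msh3 (-1.0023) and Azi2 (-1.0051) on the negative side. Just outside lay Mxra8 (0.99998), Acaa1b (0.996) and Mgst1 (0.996), and Tspan1 (-0.99996), Cd1d1 (-0.997) and Zup1 (-0.996). The threshold thus separates values that are alike.

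**Figure D4:**
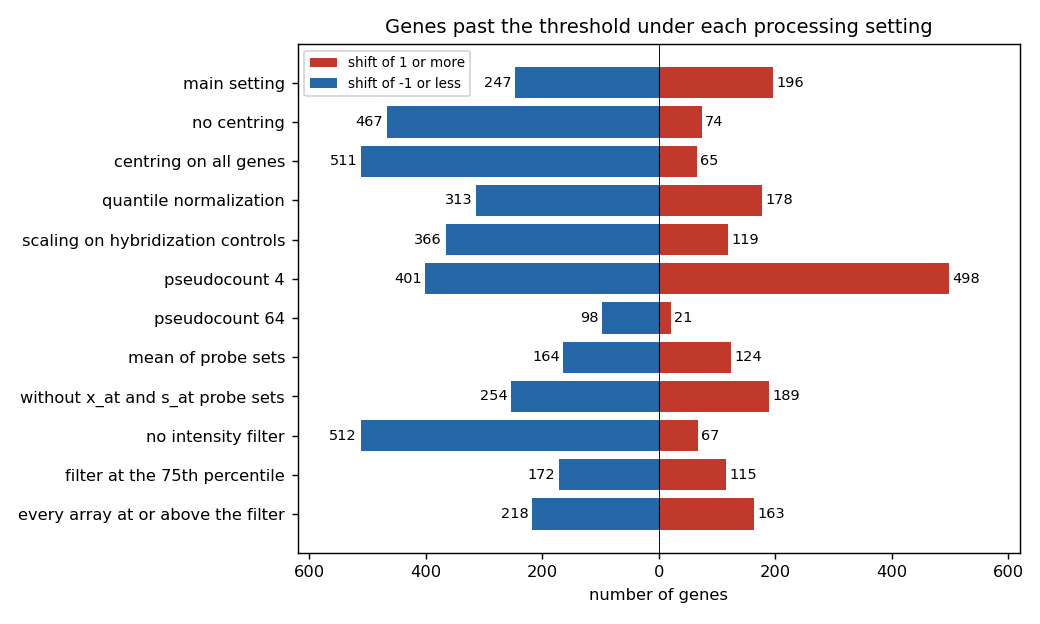
Number of genes with a shift of 1 or more (to the right) and -1 or less (to the left) in the main setting and under 11 alternatives. The main setting has 196 and 247; no centring has 74 and 467, and pseudocount 64 has 21 and 98.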

How the data were processed

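Gene expression in mouse intestinal organoids was read on 4 Affymetrix 3' arrays, 1 per group. Per the labels' protocols, biotinylated cRNA was made from 100 ng of total RNA. The authors deposited a linear intensity per probe set (45101 on every array). Which software, background correction and normalization made it is not given in the sources used here. Medians of the arrays lay between 15.4 and 17.7, and the number of arrays limits the precision.

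From these intensities, log2(intensity + 16) was computed, which understates changes of dim genes. The platform's gene table gives 1 symbol for 34958 probe sets, several for 932 and none for 9211 not listed; symbols were updated through a RefSeq table of GRCm38.p6, which matched 34754. The brightest probe set by mean stood for a gene (18193 genes). A gene was tested for size if that mean was at or above the median over probe sets (log2 5.04), which left 11392. Arrays were centred on the median of these genes. A shift of 1 on this scale was the threshold, and no p-value was computed. The calculation was tested on simulated data.

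Names were drawn from Tacc3 and Apc, the 15 highest and 15 lowest shifts, and genes past 1 in opposite directions on both days. Up to 4 members per list past the threshold (at most 2 of a list with none) and further members by function were added. Not all of these are printed, among them Phc3 (-1.77), Ankrd16 (-1.76) and the sex chromosome transcript Eif2s3y (-1.24). The members, the 40 gene lists and the rule were chosen with earlier results of these data known. Alternatives concerned scaling, pseudocount, probe set choice and filter. Promoter sequences came from RefSeq. Analyses used Python 3.11.15, pandas 2.3.3 and numpy 2.4.6.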

Additional observations from a re-analysis of the deposited data

Results flagged for a closer look

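For 6 genes the centred genotype difference on the log2(intensity + 16) scale was at least 1 in one direction at day 4 and at least 1 in the other at day 6. Without centring, the day 4 differences of AA467197 and Bnip3 were -0.84 and -0.95, short of 1 in size. With 1 array per group the difference between the days was not tested.

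The higher level lay with fl/fl organoids at day 4 and with wt/wt organoids at day 6 for Hoxb3, a homeobox gene (1.28 and -1.51, a shift of -2.79), Clk1, the splicing kinase (1.31 and -1.39, a shift of -2.70), and Hoxb5 (1.17 and -1.04, a shift of -2.21). The reverse held for 2610528A11Rik, a secreted ligand (-1.36 and 1.59, a shift of 2.94), AA467197, a mitochondrial protein (-1.05 and 1.43, a shift of 2.48), and Bnip3, the mitophagy receptor (-1.16 and 1.25, a shift of 2.42). Among all 11392 genes these 6 make up 0.0527%. Each kept its shift past the threshold under all 11 alternatives.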

How the results depend on the processing

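With 1 array per group, leaving out an array ends the comparison. No paired analysis was possible for the same reason. The counts of shifts of 1 or more and of -1 or less (196 and 247) were 74 and 467 without centring, 65 and 511 with centring on all genes, 178 and 313 after quantile normalization, and 119 and 366 on the hybridization controls. They were 498 and 401 with pseudocount 4, 21 and 98 with pseudocount 64, 124 and 164 with the mean of probe sets, 67 and 512 with no intensity filter (which also centres on all genes), and 115 and 172 with a filter at the 75th percentile. Without x_at and s_at probe sets (189 and 254) and with every array at or above the filter (163 and 218) they were within 1.5 times of 196 and 247. No gene of the 443 passed the opposite threshold in any of the 11. Under all 11, 16 positive and 56 negative genes stayed past their threshold. Of a chaperone, the shift of Hspa4l (1.14) reversed to -0.0214 on the hybridization controls, and a second probe set of it gave -0.04 with centring; whether the choice of probe set made the reversal was not tested.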

Other observations

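Further genes among the 247 with a shift of -1 or less are given here by function. They were picked by textbook function after the values were seen, so their number is no result. Several act in the response to DNA damage. Atr, the kinase that senses stalled replication forks, read 63.6 (wt/wt) and 144 (fl/fl) at day 4, then 249 and 189.9 at day 6 (shift of -1.19), but a second probe set gave -0.10. Mdm4, the inhibitor of p53, read 59.8 and 147, then 361 and 219 (-1.61), with -0.33 and 0.24 at other probe sets. The helicase Rtel1 had a shift of -1.32 (0.48 at a second probe set), Uimc1 of the BRCA1 complex -1.22, the repair scaffold Trp53bp1 -1.12 and the checkpoint kinase Chek2 -1.01. In each of these 6 genes wt/wt organoids at day 4 had the lowest intensity. The other probe sets of Trp53bp1 above the filter gave -0.48, 0.49, -0.28 and -0.60.

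Others act in autophagy and at the centrosome. Vmp1, a membrane protein of early autophagosomes, read 202 (wt/wt) and 441 (fl/fl) at day 4, then 1259.8 and 830 at day 6 (-1.48), while a second, dimmer probe set gave 0.97. The kinase Ulk1, which starts autophagy, had -1.07 (0.62 at a second probe set), and Becn1, which acts after it, -1.05 (-0.15 and 0.47 at other probe sets). Among centrosome and spindle genes, Cep152, a scaffold of centriole duplication, had -1.20, Spag5, an adaptor of the spindle, -1.21, and Tubgcp4, of the gamma-tubulin ring, -1.10. Other probe sets gave 0.70 and -0.42 for Spag5, and -1.20 and 0.11 for Tubgcp4. The list of TACC3 spindle partners had 1 of 19 genes past each threshold (5.26%, against 1.72% and 2.17% of all genes).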
